A study of Rattus norvegicus with 36 samples.

Results

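The cytosolic heat shock proteins described here are 9 genes: Hspa1a and Hspa1b (inducible Hsp70), Hspa8 (the constitutive Hsp70 cognate), the Hsp40 cochaperones Dnaja1 and Dnajb1, the Hsp110 proteins Hsph1 and Hspa4, and the small heat shock proteins Hspb1 (Hsp27) and Cryab (alpha B-crystallin). Every probe set whose platform symbol field holds at least 1 of these 9 symbols was taken, also where the field holds several symbols. This gave 9 of the 5147 genes named on the platform, measured by 22 of the 8740 probe sets, 15 with 1 symbol and 7 with several. Of those with several, 4 list Hspa1b with Hspa1a, 2 list Haus8l2 with Hspa8 and 1 lists Asb2 with Hspb1, so their signal cannot be assigned to a single gene. Probe sets were taken by symbol, but the list of members was chosen with earlier results of these data known. All 22 passed the filter on low signals and were tested.

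The series measured RNA of rat skeletal muscle on 36 one-colour oligonucleotide arrays around an acute bout of resisted contractions. The source label gives the muscle as "ta", and the labels used here give neither strain, sex nor age of the rats. The exercised muscle came from 6 h or 1 h after that bout, and each array held either polysomal RNA (transcripts loaded with several ribosomes) or total RNA. The groups were 6 h polysomal (4 numbers), 6 h total (4 numbers), 1 h polysomal (2 numbers), 1 h total (2 numbers), a polysomal control (4 numbers) and a control titled 1hr polysome (2 numbers). The labels of both controls name no contractions and give collection at 1 h. A number is the replicate number in the array titles, and each number has 2 arrays, a and b, which were averaged to 1 replicate. The polysomal control is polysomal in title and description. The description of the control titled 1hr polysome names no polysomes, so its fraction is uncertain, and no control is total RNA in both title and description. The labels do not say whether numbers are separate animals, so the p-values here rest on a spread between samples that may be technical.

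Chaperones of the Hsp70 family bind exposed hydrophobic stretches of unfolded proteins and release them in a cycle driven by ATP. Hsp40 proteins deliver clients and stimulate the ATPase of Hsp70, Hsp110 proteins exchange its nucleotide, and small heat shock proteins hold unfolded clients without ATP. The genes of the inducible forms are activated by the transcription factor Hsf1, whose trimers bind repeated GAA units in their promoters. In skeletal muscle, contraction, heat and stretch are known inducers of Hsp70, and Hspb1 and Cryab bind to the Z disc and the myofibrils.

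The promoters of Dnaja1, Dnajb1, Hspa8 and Hsph1 are shown as examples that hold matches to repeats of the kind that Hsf1 binds. That of Hspb1 also holds matches and is not shown. The windows run from 250 bases before to 50 bases after the gene start, in RefSeq's annotation of the rat build GRCr8, 5′ to 3′ on the strand of the gene. Capitals mark matches to the pair motif GAANNTTC or TTCNNGAA (each is its own reverse complement) and to the longer motif GAANNTTCNNGAA or its reverse complement TTCNNGAANNTTC, which contains the pairs.
Dnaja1 (chr5:60638154-60638453, + strand): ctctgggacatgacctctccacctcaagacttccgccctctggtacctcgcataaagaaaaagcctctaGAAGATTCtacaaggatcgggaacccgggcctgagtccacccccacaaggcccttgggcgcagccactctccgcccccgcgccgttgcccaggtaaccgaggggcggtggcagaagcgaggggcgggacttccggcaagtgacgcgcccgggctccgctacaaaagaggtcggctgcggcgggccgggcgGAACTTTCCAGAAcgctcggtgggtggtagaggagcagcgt
Dnajb1 (chr19:41431092-41431391, - strand): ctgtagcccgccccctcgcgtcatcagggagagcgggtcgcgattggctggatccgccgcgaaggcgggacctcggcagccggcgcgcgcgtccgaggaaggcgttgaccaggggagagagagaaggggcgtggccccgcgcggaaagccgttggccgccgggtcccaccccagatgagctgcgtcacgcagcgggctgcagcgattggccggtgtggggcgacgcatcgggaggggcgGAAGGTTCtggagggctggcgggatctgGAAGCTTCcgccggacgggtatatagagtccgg
Hspa8 (chr8:50080264-50080563, + strand): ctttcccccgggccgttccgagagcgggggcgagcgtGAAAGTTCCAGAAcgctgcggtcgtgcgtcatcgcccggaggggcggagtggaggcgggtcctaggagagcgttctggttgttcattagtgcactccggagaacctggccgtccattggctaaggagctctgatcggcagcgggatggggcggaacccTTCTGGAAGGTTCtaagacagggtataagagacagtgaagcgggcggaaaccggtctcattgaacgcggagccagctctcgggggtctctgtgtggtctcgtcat
Hsph1 (chr12:10427118-10427417, + strand): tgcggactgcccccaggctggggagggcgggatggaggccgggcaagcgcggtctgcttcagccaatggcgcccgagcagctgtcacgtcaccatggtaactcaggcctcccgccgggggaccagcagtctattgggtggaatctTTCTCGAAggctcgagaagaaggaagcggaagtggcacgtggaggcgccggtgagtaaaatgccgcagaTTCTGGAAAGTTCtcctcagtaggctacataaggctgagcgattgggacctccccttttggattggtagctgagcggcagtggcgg
A window was given for 7 of the 9 members. Hspa1b and Cryab are named only. A pair motif was found in 5 of the 7 windows (Dnaja1, Dnajb1, Hspa8, Hsph1 and Hspb1), against 15.9% of the 33469 rat promoters of the same length. The longer motif was found in 3 of the 7 (Dnaja1, Hspa8 and Hsph1), against 0.798% of all promoters. The windows of Hspa1a and Hspa4 held no match. Sequence outside the windows was not searched, so this does not show that these genes lack such repeats. These are matches of letters in the reference sequence, and binding was not measured.

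The deposited signals were already scaled, to a 2% trimmed mean between 801 and 802 on every array. Signals under 129.5, the value below which 40% of all signals lay, were raised to that floor. Levels are given as signal (linear, geometric mean over the arrays of a number or group) and differences as log2 with the standard error (SE) of the fit. The fit was limma on 6707 probe sets, with Benjamini-Hochberg adjusted p and a threshold of 0.05. Of 13 muscle fibre markers 11 were measured, and 8 of them lay above the floor on every array. Number 3 of the 6 h total group stood apart from its group in RNA quality. The ratio of 3′ to 5′ actin probe sets was 9.01 and 11.5 on its arrays, against 1.01 to 1.58 on the other 6 arrays of that group. This ratio also differed by fraction. On the 6 h polysomal arrays it was 2.545 to 4.476, above those other 6 total arrays and below number 3. At 1 h it was 2.003 to 4.284 in the polysomal group and 1.22 to 1.622 in the total group. The polysomal control had 1.584 to 3.878 and the control titled 1hr polysome 1.068 to 2.734. In number 2 of the latter, array b had 1.068 and array a 2.575. These 2 arrays correlated at 0.9135, the lowest of any number, and 3.71% of tested probe sets differed by over 4-fold between them. In all bulk samples of this kind, fewer cells of a type and less RNA per cell cannot be told apart.

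The comparison of 6 h polysomal RNA with the polysomal control asked which chaperone transcripts on ribosomes differed from muscle without contractions. The inducible Hsp70 and the cochaperone Dnaja1 were higher in the exercised group, whereas Dnajb1, Hspa8, Hsph1, Hspa4, Hspb1 and Cryab did not pass. Of the 22 member probe sets 4 rose and 0 fell, where 0.328% of all tested probe sets rose and 0.0149% fell (0.343% in either direction). The median log2 difference of the 22 was 0.91, against -0.03 over all probe sets. In 10 of the 22 all 4 exercised numbers lay above all 4 control numbers, and in 0 all lay below, where 2.64% of all probe sets were higher and 1.95% lower without overlap. The descriptions give 6 h and 1 h for these groups, so if these hold, contraction and collection time cannot be told apart here.

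Hspa1a and Hspa1b encode nearly identical Hsp70 proteins. L16764_s_at, listed for both, had signals of 21260, 10680, 23780 and 34070 in numbers 1 to 4 of the 6 h polysomal group, against 1611, 2792, 1909 and 1764 in the polysomal control. Even the lowest exercised number was above every control number, and the arrays did not overlap either. The difference was 3.39 on the log2 scale (SE 0.45, 10.5-fold, adjusted p = 0.00385, limma). For Z75029_s_at, listed for Hspa1a alone, the signals were 18180, 13620, 19570 and 29060 in the 6 h polysomal group and 496, 750, 757 and 598 in the polysomal control, again without overlap, and the difference was 4.92 (SE 0.51). Both probe sets passed in 31 of 33 alternatives and had the same direction in all 33. The exceptions were the fits within numbers 1 and 2 and within numbers 3 and 4, where L16764_s_at stood at 2.83 (adjusted p = 0.672, limma) and 3.96 (adjusted p = 0.053, limma).

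The probe set Z27118cds_s_at lay under the floor on all 8 arrays of the polysomal control, so only a bound can be given there. Its signals in numbers 1 to 4 of the 6 h polysomal group were 8389, 8502, 1313 and 6783, and number 3 was the lowest with 593 and 2905 on its arrays. It was at least 38.8-fold higher in the 6 h polysomal group (adjusted p = 0.0333, limma). This call was less stable than those of L16764_s_at and Z75029_s_at and held in 19 of 33 alternatives. It did not pass without number 1, 2 or 4 of the 6 h polysomal group (adjusted p = 0.133, 0.0623 and 0.148, limma), without any number of the polysomal control (adjusted p from 0.0915 to 0.118, limma) or without either number of the control titled 1hr polysome (adjusted p = 0.0569, limma). Nor did it pass without array b of number 1 of the 6 h total group, which bears only on the estimated spread (adjusted p = 0.0572, limma).

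The other probe sets listed for Hspa1b with Hspa1a were rc_AA818604_s_at and AA848563_s_at. Signals of rc_AA818604_s_at in the 6 h polysomal group were 1337, 1528, 315 and 687, against 186, 164, 133 and 132 in the polysomal control, which did not overlap. The difference was 2.42 with a wide SE of 1.20 (adjusted p = 0.95, limma), short of the threshold. AA848563_s_at was under the floor on all 8 arrays of the polysomal control and on both arrays of number 3 of the 6 h polysomal group, so it was at least 2.89-fold higher in the 6 h polysomal group, which did not pass (adjusted p = 1, limma). Of the 5 probe sets of the inducible Hsp70 3 thus passed the threshold.

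**Figure D1:**
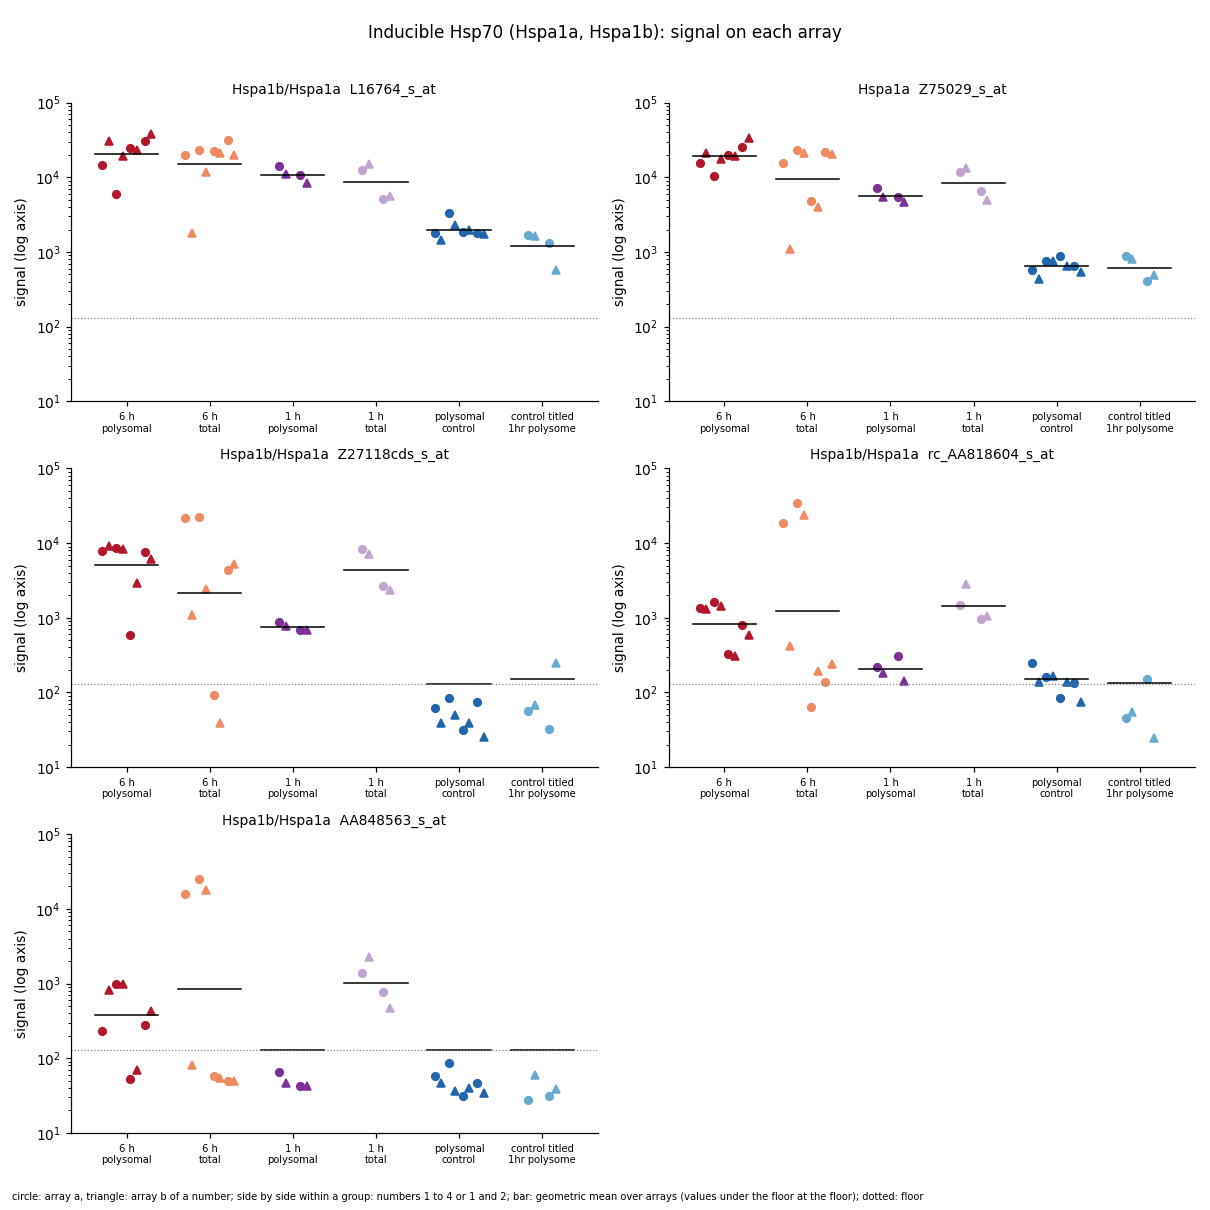
Signal (log axis) of the 5 probe sets of Hspa1a and Hspa1b on each of the 36 arrays, by group, with array a as circles and array b as triangles, numbers side by side, bars at the geometric mean with values under the floor set to the floor (dotted line). In L16764_s_at every array of the 6 h polysomal group, from 5935 to 37800, lies above every array of the polysomal control, from 1462 to 3367, and within the 6 h total group array b of number 1 lies far below array a.

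Hsp40 proteins start the ATP cycle of Hsp70, and Dnaja1 and Dnajb1 are its main cytosolic partners. Dnaja1 is measured by rc_AA800551_at and U53922_at. The signals of rc_AA800551_at were 1991, 4334, 2369 and 3027 in the 6 h polysomal group and 297, 297, 414 and 287 in the polysomal control. No array of the exercised group, the lowest at 1699, overlapped the control, whose highest array had 429. The difference was 3.13 (SE 0.56, 8.77-fold, adjusted p = 0.0273, limma). The call depended on single numbers: it did not pass without number 1, 3 or 4 of the 6 h polysomal group (adjusted p = 0.0599, 0.0637 and 0.105, limma) or without any number of the polysomal control (adjusted p from 0.0706 to 0.093, limma). The difference itself ran from 2.90 to 3.31 over the 33 alternatives.

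The other Dnaja1 probe set, U53922_at, had 8322, 13630, 7464 and 9474 in the 6 h polysomal group against 2423, 4167, 1732 and 1459 in the polysomal control, and it too showed no overlap of numbers or arrays. Its difference of 2.07 (SE 0.55) did not pass (adjusted p = 0.16, limma). Dnajb1, the Hsp40 most closely tied to the heat shock response, had the same pattern with more spread. Its probe set rc_AA945704_at gave 2501, 2942, 5294 and 6601 in the 6 h polysomal group against 676, 765, 688 and 889 in the polysomal control. All exercised numbers were higher, the difference was 2.42 (SE 0.86), and it did not pass (adjusted p = 0.504, limma). The other, rc_AA859648_at, stood at 1.55 (SE 0.59, adjusted p = 0.598, limma), also without overlap. In the fit to all 36 arrays with the number as a random block, U53922_at and rc_AA945704_at passed (adjusted p = 0.00492 and 0.036, limma), and U53922_at also passed with array quality weights (adjusted p = 0.0451, limma).

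**Figure D2:**
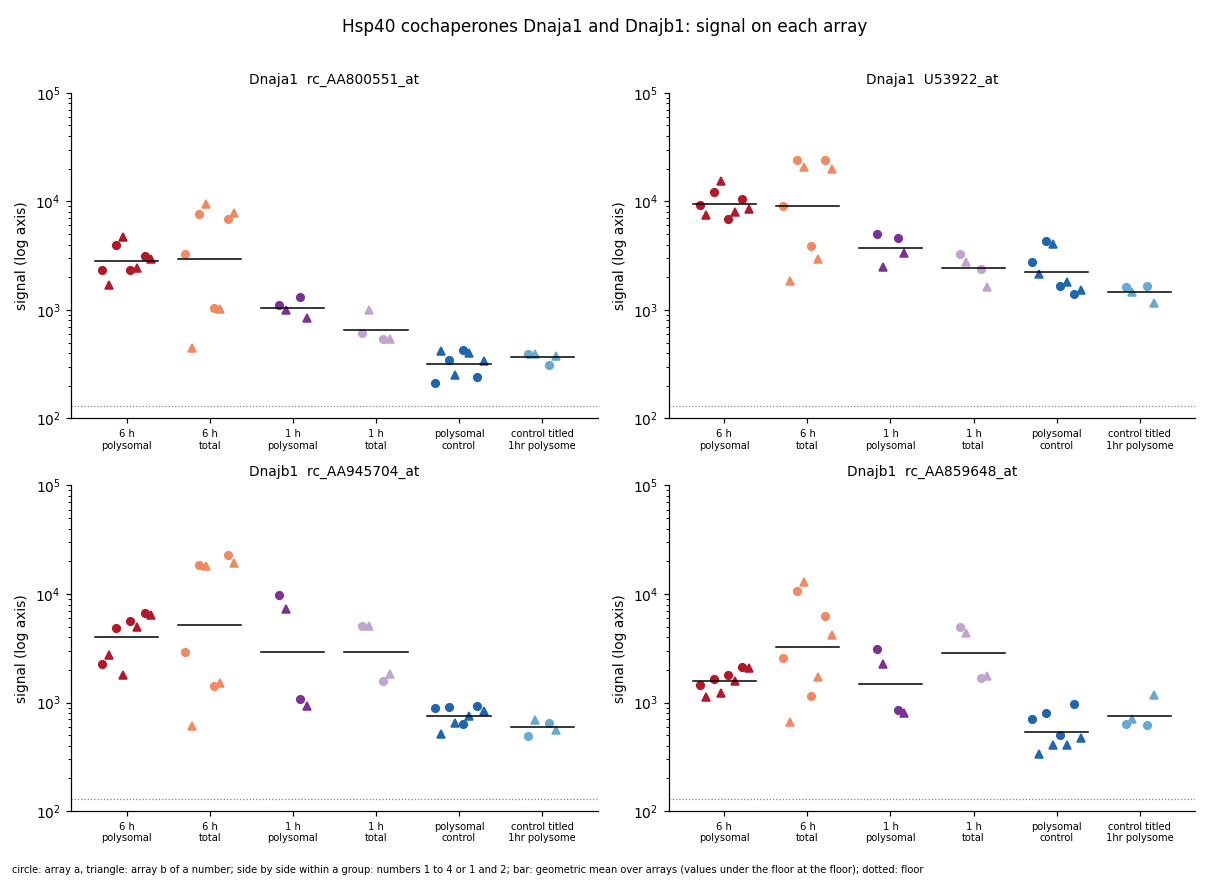
Signal (log axis) of the Hsp40 probe sets of Dnaja1 and Dnajb1 on each array, by group, with array a as circles, array b as triangles, bars at the geometric mean and the floor dotted. In all 4 panels the 6 h polysomal arrays lie above those of the polysomal control, and the 6 h total arrays are split, with numbers 2 and 4 high and number 3 and array b of number 1 low.

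The constitutive Hsp70, Hspa8, folds new proteins and uncoats clathrin vesicles in unstressed cells. Its probe set M11942_s_at, listed for Haus8l2 with Hspa8, had 27280, 17390, 23380 and 37590 in the 6 h polysomal group, against 18900, 18580, 14310 and 17090 in the polysomal control. The groups overlapped, since number 2 of the exercised group lay below 2 control numbers. The difference was 0.57 (SE 0.28, 95% interval -0.02 to 1.16, adjusted p = 0.926, limma). The other Hspa8 probe set, rc_AI234604_s_at, stood at 1.01 (SE 0.83, adjusted p = 1, limma), with numbers that did not overlap but arrays that did.

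Hsph1 and Hspa4 are Hsp110 proteins, the nucleotide exchange factors of cytosolic Hsp70. The Hsph1 probe set rc_AI236601_at gave 2535, 3422, 1523 and 2021 in the 6 h polysomal group and 1210, 1825, 1205 and 1044 in the polysomal control. Numbers overlapped, and the difference of 0.82 (SE 0.38) did not pass (adjusted p = 0.875, limma). The other Hsph1 probe set, AA108277_at, was under the floor on every array of both groups. Hspa4 showed small differences, 0.32 (SE 0.43) for AF077354_g_at and 0.27 (SE 0.27) for AF077354_at, with adjusted p = 1 for both (limma).

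**Figure D3:**
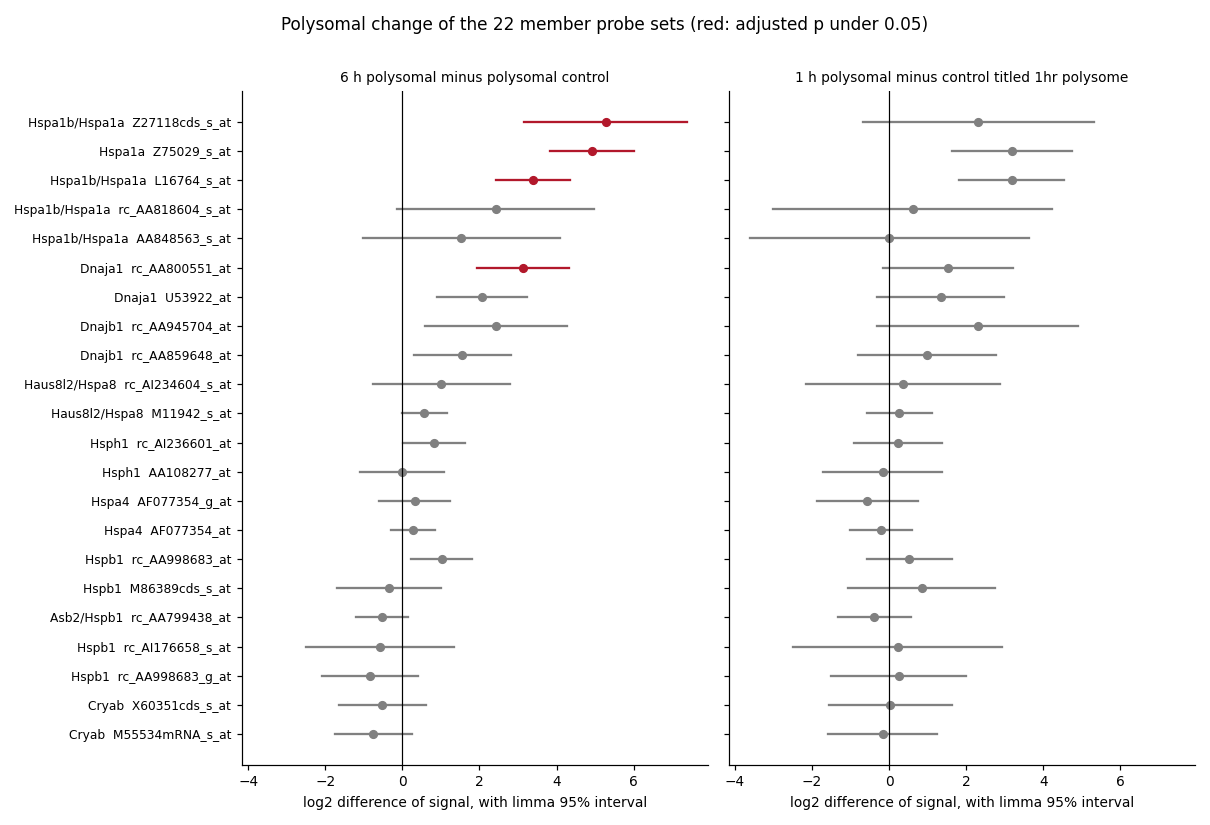
Log2 difference of signal for the 22 member probe sets, points with limma's 95% interval, left for 6 h polysomal minus polysomal control and right for 1 h polysomal minus control titled 1hr polysome, with red for adjusted p under 0.05. On the left 4 points are red, the lowest at 3.13 for Dnaja1, and those of Z27118cds_s_at (5.28) and AA848563_s_at (1.53) are lower bounds, since the control lay under the floor on every array, and on the right 0 are red, with the highest at 3.19 and 3.18.

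Hspb1 caps and stabilises actin filaments. M86389cds_s_at gave 3816, 1455, 12460 and 16760 in the 6 h polysomal group, against 7218, 8019, 6854 and 7677 in the polysomal control. The exercised numbers fell on both sides of the control, with 1 and 2 below and 3 and 4 above. The low values came from array a of numbers 1 and 2, at 777 and 2.18, while array b of the same numbers had 18730 and 16340. The same arrays were low in rc_AI176658_s_at, at 37.6 and 574, where array b had 24330 and 21150. In rc_AA998683_g_at they had 4294 and 459, where array b had 27780 and 26590.

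These low arrays belong to 6 arrays of the 6 h set whose titles carry no letter after the number. On those of the 6 h polysomal group the ratio of 3′ to 5′ Gapdh probe sets was 0.416 and 0.0702, against 0.561 to 1.30 on its other 6 arrays. On those of the polysomal control it was 0.0742 and 0.0374, against 0.363 to 1.19 on the other 6. On those of the 6 h total group it was not low, at 1.091 and 0.9129, against 0.8781 and 0.8801 on array b of the same numbers. There array a had the higher signal in M86389cds_s_at, rc_AI176658_s_at and rc_AA998683_g_at, by 1.05-fold to 119-fold. On these 2 control arrays M86389cds_s_at had 7188 and 6559, within the 6483 to 9804 of the other control arrays, and rc_AA998683_g_at had 17600 and 18340. In rc_AI176658_s_at they were the lowest of the control, at 7432 and 8596 against 8682 to 17540, and in rc_AA799438_at, listed for Asb2 with Hspb1, they had 8931 and 3198 against 12270 to 23440. What lowers these probe sets on the unlettered 6 h polysomal arrays was not tested.

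With all arrays, M86389cds_s_at, rc_AI176658_s_at and rc_AA998683_g_at stood at -0.35 (SE 0.63), -0.57 (SE 0.90) and -0.85 (SE 0.58), and none passed (adjusted p = 1 for each, limma). Without the 6 unlettered arrays, an alternative chosen after seeing the data, they stood at 1.02, 0.76 and 0.17, with adjusted p from 0.67 to 1 (limma). The sign for Hspb1 in this comparison therefore depended on these arrays. The fourth single-symbol probe set of Hspb1, rc_AA998683_at, was not low on them. It gave 3758, 2301, 1565 and 2381 in the 6 h polysomal group against 1098, 1327, 1007 and 1307 in the polysomal control, without overlap of numbers. Its difference of 1.02 (SE 0.37) did not pass (adjusted p = 0.518, limma). The probe set listed for Asb2 with Hspb1, rc_AA799438_at, stood at -0.54 (SE 0.31).

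Cryab, which protects desmin filaments and titin, had negative differences that did not pass. M55534mRNA_s_at had 12870, 8506, 17000 and 26600 in the 6 h polysomal group, against 22270, 17440, 21140 and 48760 in the polysomal control. The groups overlapped, and the difference was -0.75 (SE 0.47, 95% interval -1.76 to 0.25, adjusted p = 1, limma). X60351cds_s_at stood at -0.52 (SE 0.53), with 643 on array a of number 2 of the 6 h polysomal group against 13580 to 48070 on the remaining arrays of both groups. Without the 6 unlettered arrays the differences were -0.54 and 0.00.

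**Figure D4:**
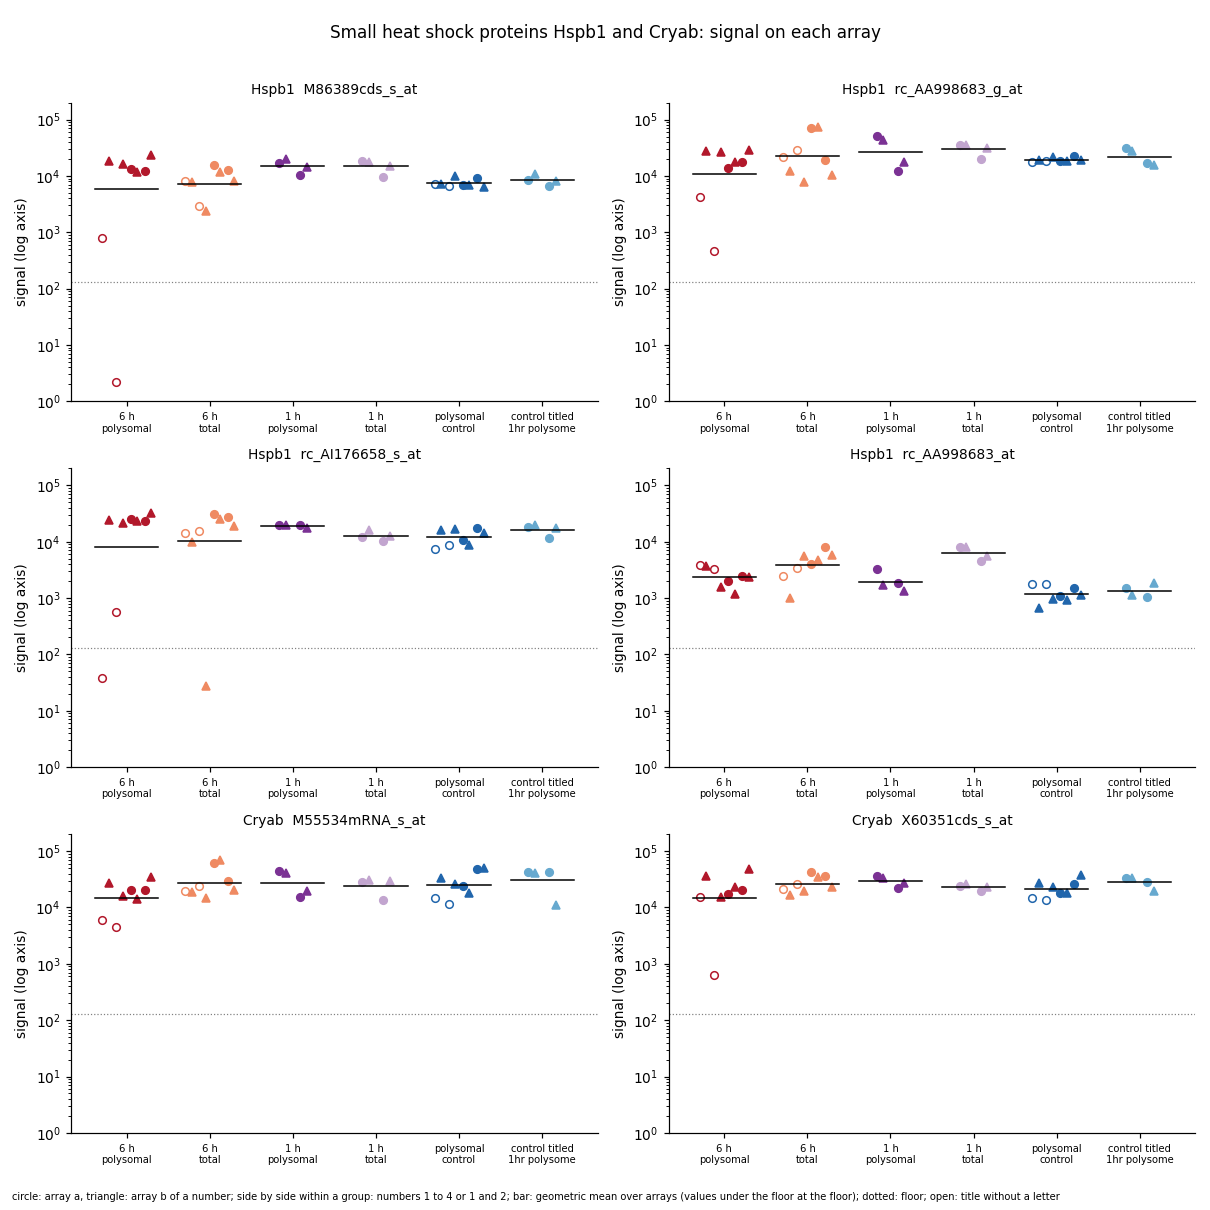
Signal (log axis) of 6 probe sets of Hspb1 and Cryab on each array, by group, with array a as circles, array b as triangles, open symbols for the arrays whose titles carry no letter, bars at the geometric mean and the floor dotted. In 3 of the 4 Hspb1 panels the open circles of the 6 h polysomal group lie far below its other arrays, down to 2.18 in M86389cds_s_at, while the filled symbols of that group lie near or above the polysomal control.

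The 1 h polysomal group (2 numbers) was compared with the control titled 1hr polysome (2 numbers). None of the 22 probe sets passed, as none did of all 6707 (0%). At an unadjusted p under 0.05 there were 2 members and 299 probe sets in all. Both members belong to the inducible Hsp70. In 10 of the 22 the exercised numbers lay above the control numbers without overlap, where 12.7% of all probe sets did (19% lay below), and the median was 0.31 against -0.03 over all. L16764_s_at had 12610 and 9400 in the 1 h polysomal group, against 1657 and 871 in the control titled 1hr polysome. These did not overlap, and the difference of 3.18 (SE 0.64) did not pass (adjusted p = 0.646, limma). Z75029_s_at had 6325 and 4994 against 851 and 448, and stood at 3.19 (SE 0.72).

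Among the Hsp40 genes at 1 h, rc_AA800551_at of Dnaja1 had 1046 and 1055 in the 1 h polysomal group and 390 and 340 in the control titled 1hr polysome. The numbers did not overlap, and the difference was 1.53 (SE 0.79, adjusted p = 1, limma). Dnajb1 differed widely between the exercised numbers: rc_AA945704_at had 8441 and 1009, against 589 and 598 in the control, and stood at 2.30 with an SE of 1.22. M11942_s_at of Hspa8 (0.27, SE 0.39), rc_AI236601_at of Hsph1 (0.23, SE 0.54), AF077354_g_at of Hspa4 (-0.56, SE 0.61), rc_AA998683_g_at of Hspb1 (0.24, SE 0.82) and M55534mRNA_s_at of Cryab (-0.17, SE 0.66) lay within about 1 SE of 0. The difference between the 6 h and the 1 h response was tested for all 22, and none passed, as none did of all probe sets (0%, with 173 of all and 0 of the members at an unadjusted p under 0.05, limma). It was 0.21 (SE 0.78) for L16764_s_at, 1.73 (SE 0.89) for Z75029_s_at and 1.61 (SE 0.97) for rc_AA800551_at.

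Polysomal RNA at 6 h was also set against polysomal RNA at 1 h directly. None of the 22 passed (0% of all probe sets, 366 of all and 2 of the members at an unadjusted p under 0.05, limma). In 6 of the 22 the 6 h numbers lay above the 1 h numbers without overlap, where 4.34% of all probe sets did (8.75% lay below). These included both Dnaja1 probe sets, at 1.42 (SE 0.69) and 1.35 (SE 0.67), and Z75029_s_at at 1.79 (SE 0.63, adjusted p = 0.663, limma). L16764_s_at, at 0.93 (SE 0.55), overlapped between 6 h and 1 h. Arrays of the 1 h set and the 6 h set also differ in the number of replicates, 2 against 4.

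In total RNA at 1 h, set against the control titled 1hr polysome, 0 of the 22 passed, where 0.0745% of all probe sets did, and 6 of the 22 had an unadjusted p under 0.05 (745 of all, limma). In 15 of the 22 the exercised numbers lay above the control numbers without overlap and in 2 below, where 27.7% of all probe sets lay above and 22.1% below. This comparison shares its control arrays with the polysomal comparison at 1 h, and the fractions may differ. Z75029_s_at had 12560 and 5713 in the 1 h total group, against 851 and 448 in the control titled 1hr polysome, and stood at 3.78 (SE 0.72, adjusted p = 0.0811, limma). Its numbers did not overlap, and it passed in 9 of 30 alternatives, among them the fit with a replicate block (adjusted p = 0.0448, limma). It also passed without number 1, 2 or 3 of the 6 h total group, which share only the estimate of the spread (adjusted p = 0.0423, 0.0498 and 0.0415, limma). L16764_s_at stood at 2.84 (SE 0.64), and Z27118cds_s_at, with 7654 and 2503 against 129.5 and 178, at 4.85 (SE 1.40). The small heat shock protein probe set rc_AA998683_at of Hspb1 gave 8019 and 5001 in the 1 h total group against 1287 and 1405, a difference of 2.24 (SE 0.52, adjusted p = 0.136, limma). The other Hspb1 probe sets did not share a rise of this size. Group signals were 29750 against 22140 in rc_AA998683_g_at and 14730 against 8425 in M86389cds_s_at. They were lower in the 1 h total group for rc_AI176658_s_at (12680 against 16430) and rc_AA799438_at, listed for Asb2 with Hspb1 (9988 against 19510).

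Polysomal RNA was compared with total RNA of the same time, which asks how far transcripts were found on ribosomes. Apart from number 3 of the 6 h total group, the 3′ to 5′ actin ratio was higher in polysomal RNA, as given above. Its part in the differences between the fractions was not tested. Of the 22 probe sets 2 fell in polysomal RNA at 6 h and 0 rose, which is 9.09% of the members, close to the 8.77% of all probe sets called in either direction (4.99% fell and 3.77% rose). Both that fell belong to Hspa4 and share a sequence accession. All probe sets together were shifted by -0.16 in this comparison, by -0.04 after quantile normalization and by -0.06 after scaling to the 75th percentile. AF077354_g_at had 501, 616, 200 and 189 in the 6 h polysomal group, against 826, 1156, 637 and 1225 in the 6 h total group. Every polysomal number lay below every total number, as in 1 of the 22 members and in 7.14% of all probe sets (4.64% lay above), with a difference of -1.50 (SE 0.43, adjusted p = 0.044, limma). AF077354_at had 203, 259, 147 and 143 in the 6 h polysomal group and 346, 513, 207 and 377 in the 6 h total group, which overlapped, with a difference of -0.91 (SE 0.27, adjusted p = 0.047, limma). These signals lie close to the floor, and 2 of the 8 polysomal arrays and 1 of the 8 total arrays of AF077354_at were under it.

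Both Hspa4 calls kept their direction in 30 of 30 alternatives but passed only in 13 (AF077354_g_at) and 10 (AF077354_at) of them. After quantile normalization the differences were -1.34 (adjusted p = 0.0773, limma) and -0.70 (adjusted p = 0.143, limma). Neither passed without number 3 or 4 of the 6 h polysomal group (adjusted p from 0.12 to 0.125, limma), without number 1, 2 or 4 of the 6 h total group (0.0621 to 0.117 as adjusted p, limma), without either number of the 1 h total group (0.053 to 0.062) or without number 1 or 2 of the polysomal control (0.0507 to 0.0601). AF077354_at alone was also lost without number 1 of the 6 h polysomal group (adjusted p = 0.0646, limma), a number of the 1 h polysomal group (adjusted p = 0.0569) or number 3 or 4 of the polysomal control (adjusted p = 0.0569 and 0.0549). AF077354_g_at alone was also lost without a number of the control titled 1hr polysome (adjusted p = 0.0571, limma). At 1 h the polysomal minus total differences were -0.84 (SE 0.61) and -0.87 (SE 0.38) and did not pass, and the test of 6 h against 1 h gave -0.66 (SE 0.75) and -0.04 (SE 0.46).

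For the inducible Hsp70 and the Hsp40 genes no difference between polysomal and total RNA at 6 h passed. L16764_s_at had 6015, 16660, 21670 and 25140 in the 6 h total group, and the polysomal group stood 0.44 above it (SE 0.45, adjusted p = 0.551, limma). Z75029_s_at had 4104, 21960, 4373 and 21400 in total RNA, a wider spread than the 13620 to 29060 in polysomal RNA, and the polysomal group stood 1.01 above it (SE 0.51, adjusted p = 0.218, limma). The Dnaja1 probe sets stood at -0.08 (SE 0.56) and 0.07 (SE 0.55). Cryab had negative differences at 6 h, -0.88 (SE 0.47) and -0.83 (SE 0.53), that did not pass. For 3 of the 4 single-symbol Hspb1 probe sets the sign turned with array b of each number alone. M86389cds_s_at was -0.32 (SE 0.63) with all arrays and 1.40 with array b alone (adjusted p = 0.0469, limma). rc_AI176658_s_at was -0.34 with all arrays and 2.34 with array b alone (adjusted p = 0.219, limma), and rc_AA998683_g_at was -1.07 and 0.57 (adjusted p = 0.511, limma). Without the 6 unlettered arrays these 3 also lay above 0, at 1.17, 2.19 and 0.34, and rc_AA998683_at stayed below 0 in both settings, at -0.81 and -0.74. In both settings number 2 of the 6 h total group rests on its array b alone. For rc_AI176658_s_at that array had 27.6, under the floor and, against the floor, 119-fold below array a. The sign of this probe set thus also depended on that array. At 1 h 0 of the 22 passed, where 0.388% of all probe sets did (0.194% in each direction), with 2 of the members and 1061 of all at an unadjusted p under 0.05 (limma). In 8 of the 22 the 1 h polysomal numbers lay below the total numbers and in 3 above, where 29.6% of all probe sets lay below and 19.1% above. The difference of polysomal minus total RNA between 6 h and 1 h passed for 0 of the 22 and for 0% of all (1 of the members and 372 of all at an unadjusted p under 0.05, limma).

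The 6 h total group was uneven for these genes, and no total RNA of muscle without contractions was available to set against it here. Dnaja1, Dnajb1 and the Hspa1a probe set Z75029_s_at were high in numbers 2 and 4 and lower in numbers 1 and 3. The probe sets listed for Hspa1b with Hspa1a did not share this order, and L16764_s_at was higher in number 3 than in number 2. U53922_at of Dnaja1 had 4079, 22310, 3373 and 21840 in numbers 1 to 4, and rc_AA945704_at of Dnajb1 had 1328, 18220, 1468 and 20920. Hsph1 followed in rc_AI236601_at, with 1763, 4908, 1805 and 6290. Its other probe set, AA108277_at, did not, with 385, 1259, 129.5 and 129.5, the last 2 at the floor. M11942_s_at of Hspa8 (21540, 22650, 11120 and 32230) and M55534mRNA_s_at of Cryab (19220, 18790, 65030 and 24350) had another order. Number 3, with the high 3′ to 5′ actin ratio, had the highest Cryab signal and the lowest Hspa8 signal of the group, and its Z27118cds_s_at was under the floor on both arrays. Whether RNA quality has a part in these values was not tested.

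The arrays of number 1 differed from each other for these genes, with array b the lower. L16764_s_at had 19860 on array a and 1821 on array b, a 10.9-fold gap, and array b lay within the range of the control arrays, 572 to 3367. Z75029_s_at had 15340 on array a and 1098 on array b, a 14.0-fold gap. The gap was 20.1-fold in Z27118cds_s_at, 44.1-fold in rc_AA818604_s_at and 120-fold, against the floor, in AA848563_s_at. It was 7.38-fold and 4.97-fold in the Dnaja1 probe sets and 4.80-fold and 3.91-fold in those of Dnajb1. For these cochaperones array a was also below numbers 2 and 4: rc_AA945704_at of Dnajb1 had 2910 on it, against 17960 to 22890 on the arrays of numbers 2 and 4. By contrast it was 1.31-fold and 1.27-fold for Hspa8 and 1.01-fold and 1.28-fold for Cryab. Of the 22 members 8 differed by over 4-fold between the arrays of this number, where 37 of all 6707 probe sets did (0.552%). The arrays correlated at 0.963 over all probe sets, and their actin ratios were 1.58 and 1.57. In number 2 of the 6 h total group 2 members differed by over 4-fold, Z27118cds_s_at (22540 on array a and 2459 on array b) and rc_AI176658_s_at of Hspb1 (15410 on array a and 27.6, under the floor, on array b). In numbers 1 and 2 of the 6 h polysomal group 4 and 5 members did, all of them probe sets of Hspb1 or Cryab and with array a the lower. The pattern in number 1 of the 6 h total group was singled out after its values were seen. Without array b of number 1 the polysomal minus total difference of L16764_s_at was 0.01 in place of 0.44 and that of Z75029_s_at 0.54 in place of 1.01. The total RNA difference of 6 h minus 1 h was then 1.26 in place of 0.83 for L16764_s_at and 0.65 in place of 0.18 for Z75029_s_at.

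**Figure D5:**
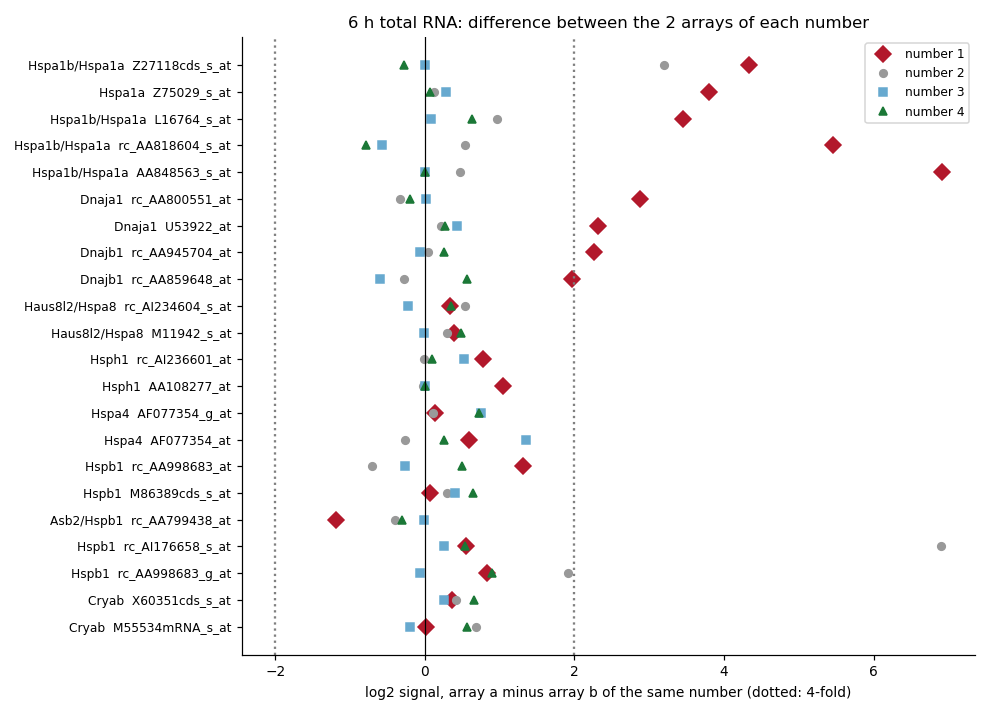
Log2 signal of array a minus array b for the 22 member probe sets in the 6 h total group, with a symbol for each of the 4 numbers and dotted lines at a 4-fold gap. The diamonds of number 1 lie beyond the line for 8 probe sets of Hspa1a, Hspa1b, Dnaja1 and Dnajb1, up to 6.91, and near 0 for Hspa8 and Cryab, where the largest is 0.39, and number 2 lies beyond the line for rc_AI176658_s_at of Hspb1 (6.90) and Z27118cds_s_at (3.20).

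In the comparison of total RNA at 6 h with total RNA at 1 h 0 of the 22 passed, where 0.0596% of all probe sets did, with 3 of the members and 517 of all at an unadjusted p under 0.05 (limma). In 3 of the 22 the 6 h numbers lay above the 1 h numbers without overlap, where 7.25% of all probe sets did (5.87% lay below). These were both Dnaja1 probe sets, at 2.20 (SE 0.69) and 1.90 (SE 0.67), and rc_AI236601_at of Hsph1 at 1.07 (SE 0.47). In the comparison of the polysomal control with the control titled 1hr polysome 0 of the 22 passed, as 0% of all did, and 0 members at an unadjusted p under 0.05 (367 of all, limma). In 1 of the 22, rc_AA945704_at of Dnajb1, the polysomal control numbers lay above the others without overlap, where 6.89% of all probe sets did (11% lay below).

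The probe sets of Hspa1b with Hspa1a diverged in total RNA. AA848563_s_at had 15590 on array a of number 1 and 24930 and 18010 on the arrays of number 2 of the 6 h total group, but 48.8 to 58.2 on the 4 arrays of numbers 3 and 4. Between 465 and 2236 was measured on the arrays of the 1 h total group, and 42.3 to 65.4, under the floor, on those of the 1 h polysomal group. Yet number 4 of the 6 h total group had 31280 and 20210 in L16764_s_at. The probe sets thus did not follow each other within total RNA, and which transcript each reports cannot be read from the symbols.

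Over the 6 groups, L16764_s_at ran in the order 6 h polysomal (geometric mean signal 20710), 6 h total (15280), 1 h polysomal (10890), 1 h total (8610), polysomal control (1973) and control titled 1hr polysome (1201). Log2 means were 14.34 ± 0.70 (SD, n = 4), 13.90 ± 0.93 (n = 4), 13.41 ± 0.30 (n = 2), 13.07 ± 0.94 (n = 2), 10.95 ± 0.35 (n = 4) and 10.23 ± 0.66 (n = 2). Neighbours among the exercised groups overlapped, and so did the controls. The lowest exercised number, 5434 in the 1 h total group, lay above the highest control number, 2792. In rc_AA800551_at of Dnaja1 every exercised number also lay above every control number, with group signals of 2805, 2972, 1051 and 648 in the exercised groups in that order, against 320 in the polysomal control and 364 in the control titled 1hr polysome.

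By likeness to L16764_s_at over the 18 replicates, the nearest of 3896 other genes were Atf3 (Pearson r = 0.924), Egr1 (0.886), Ppp1r15a (0.885), Dusp5 (0.872) and Hbegf (0.843). Atf3 and Egr1 are stress-induced and immediate early transcription factors, Ppp1r15a directs a phosphatase to eIF2alpha, Dusp5 is a nuclear ERK phosphatase and Hbegf an EGF receptor ligand. The points share the arrays and their scaling, so these values are a description. Within the members, r with L16764_s_at was 0.948 for Z75029_s_at, 0.82 and 0.768 for Dnaja1, 0.805 and 0.701 for Dnajb1, and 0.72, 0.435 and 0.325 for the other probe sets of Hspa1b with Hspa1a. It was 0.534 and 0.182 for Hspa8, 0.599 and 0.114 for Hsph1, 0.316 and 0.207 for Hspa4, and 0.04 and -0.106 for Cryab. For Hspb1 it ran from -0.456 to 0.672 over 5 probe sets, with 0.672 for rc_AA998683_at and 0.112 or less for the other 4.

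Of 67 other genes of the chaperone system and its regulators (Hsp90 and its cochaperones, chaperonin subunits, mitochondrial and endoplasmic reticulum chaperones, heat shock factors), 35 had a tested probe set with 1 symbol. Each was read by the brightest such probe set, and any other probe sets of these genes were not read here. None passed in the 6 h polysomal comparison, with a median of -0.02 against -0.03 over all probe sets. Nearest was Hmox1, the heme-degrading oxygenase, at 1.65 (SE 0.34, adjusted p = 0.0569, limma), with a group signal of 1750 in the 6 h polysomal group against 559 in the polysomal control. It was followed by the chaperonin subunit Cct3 at 1.44 (SE 0.37, adjusted p = 0.15, limma) and the Hsp40 Dnajb5 at 0.65 (SE 0.21, adjusted p = 0.385, limma). Hsf1, named for its role and not by the rule for named genes, had a group signal of 3014 in the 6 h polysomal group and 3451 in the polysomal control. In polysomal minus total RNA at 6 h 3.77% of all tested probe sets were higher and 4.99% lower. Of the 35, 1 was higher, the mitochondrial Hsp40 Dnaja3 (0.86, SE 0.22), and 4 were lower. The lower ones were Canx (-1.02, SE 0.23) and Hsp90b1 (-0.56, SE 0.15), of the endoplasmic reticulum, the chaperonin subunit Cct6a (-0.98, SE 0.24) and the Hsp90 partner Chordc1 (-0.92, SE 0.20). Adjusted p for these 5 ran from 0.0141 to 0.0333 (limma). None of the 35 passed in the other 8 comparisons.

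Markers of other cell types were read beside these results. The summed signal of 8 measured macrophage markers ran from 5967 to 17140 over the arrays of the 6 h polysomal group, against 4976 to 8866 in the polysomal control. Of the 7 that were tested 0 passed, and their median difference was 0.04. The 11 muscle fibre markers summed to between 67270 and 282600 in the 6 h polysomal group and to between 77550 and 407900 in the polysomal control, with 0 of 11 past the threshold. The part of these cells in the chaperone signals was not tested.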

How the data were processed

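The authors deposited one table of linear signal intensities for 36 one-colour rat arrays, already scaled between arrays; how they were computed is not given in the sources used here. Members and gene lists were chosen with earlier results of these data known. Of 8799 probe sets 59 are controls, 7006 have 1 platform symbol, 308 several and 1426 none. Intensities were floored at 129.5 (40% of the values lay under it), put on the log2 scale and averaged over the 2 arrays of a number, which gave 18 replicates. The 6707 probe sets that exceeded this floor on 4 or more arrays were fitted in limma 3.58.1 (R 4.3.3) with 6 group means, 12 residual degrees of freedom, empirical Bayes moderation and Benjamini-Hochberg adjustment over all 6707. Signals per array have no stated depth, so the number of arrays limits the precision.

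A fold against a group under the floor on every array is a lower bound, written "at least". The arrays of a number correlated at 0.914 to 0.984 and other pairs of arrays at 0.819 to 0.979, with no duplicated array. By rule, values of each number are given for member probe sets past the threshold and for the probe set of each member with the highest mean signal; the other genes named are the 5 nearest to L16764_s_at, chosen as such for the Hspa1 genes, by Pearson correlation over the 18 replicates, listed chaperones past the threshold, and the 3 with the smallest p in the 6 h polysomal comparison. Equal numbers of the 6 h polysomal group and the polysomal control deviated together, with correlations of deviations from 0.431 to 0.538. In the other pairs of groups within a time these ran from -0.03 to 0.25. The labels do not say what equal numbers share, so a pairing of samples in the 6 h polysomal comparison is possible but not known. The main fit was not paired, and the fit with the number as a replicate block was an alternative. The other alternatives were the scaling, the floor, the filter, array weights, a random block of all arrays, the other control, subsets of numbers, and leaving out each number. The script was tested on simulated data. Promoters are RefSeq's (GRCr8).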

Additional observations from a re-analysis of the deposited data

Results flagged for a closer look

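In 62 groups of 4 numbers, 1 for each member probe set and group whose values were not all at the floor, 5 held a number far from the other 3, measured as its gap to the nearest number over the range of the group on the log2 scale. Chance alone gives about 1 in 20 independent groups, and 5 of 62 is near that share. These groups share samples and genes, however, so the count cannot tell whether the 5 arose by chance. All of them were of number 3.

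In the 6 h polysomal group, number 3 of Z27118cds_s_at, the inducible Hsp70 (Hspa1b with Hspa1a), was lowest at 1313, where the other 3 lay between 6783 and 8502 (gap over range 0.879). In the 6 h total group number 3 of this probe set was at the floor, where the other 3 lay between 4801 and 7445 (gap over range 0.892).

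The 6 h total number 3 was also lowest in rc_AI234604_s_at of Hspa8, the constitutive Hsp70, at 627 against 15740 to 24980 in the other numbers (gap over range 0.875). It was highest in rc_AA998683_g_at of Hspb1, at 73410 against 14130 to 16600 (gap over range 0.902). The ratio of 3′ to 5′ actin probe sets on its arrays was 9.01 and 11.5, and its part in these values was not tested.

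In the polysomal control, number 3 of rc_AA800551_at of Dnaja1, an Hsp40 cochaperone, was highest at 414 against 287 to 297 in the other numbers (gap over range 0.903). Without it the 6 h polysomal minus polysomal control difference was 3.26 in place of 3.13.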

How the results depend on the processing

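Of 220 pairs of a member probe set and a comparison, 202 were called under no setting, 6 were called as reported and 12 only under an alternative. In 6 h polysomal RNA minus the polysomal control, 4 members were called; 2 were without the filter on low signals, 2 against the control titled 1hr polysome, 1 within numbers 1 and 2, and 0 within numbers 3 and 4. Leaving out single numbers gave 2 to 4. Array a of each number alone lost Z27118cds_s_at, and array b alone or the drop of the 6 unlettered arrays lost rc_AA800551_at. With all 36 arrays and a random block U53922_at and rc_AA945704_at were called besides. With array weights U53922_at was called besides. With the replicate block the count stayed at 4 (33 probe sets over all, against 23), and the block changed no other call than that of Z75029_s_at in 1 h total RNA.

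In polysomal minus total RNA at 6 h, 2 members were called; 0 were after quantile normalization, 0 after scaling to the 75th percentile, 0 without the filter, 0 with array a of each number, 1 with array b, 1 with log2(signal + 64) in place of the floor, 1 without array b of number 2 of the control titled 1hr polysome, and 5 with array weights. Leaving out single numbers gave 0 to 2. With all 36 arrays and a random block AA108277_at of Hsph1 was called besides both Hspa4 probe sets. With array b alone 3 Hspb1 probe sets reversed: M86389cds_s_at was 1.40 in place of -0.32, rc_AI176658_s_at 2.34 in place of -0.34 and rc_AA998683_g_at 0.57 in place of -1.07. The low array a signals of the 6 h polysomal group are given above. So is the low array b signal of rc_AI176658_s_at in number 2 of the 6 h total group.

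In 1 h total RNA minus the control titled 1hr polysome, 0 were called; 1 was with the replicate block, 4 with all 36 arrays and a random block, 4 with array weights, 2 without array b of number 1 of the 6 h total group, 3 without array b of number 2 of the control, and 1 with array a. Leaving out single numbers gave 0 to 2. In polysomal minus total RNA at 1 h, 1 was called with all 36 arrays and 1 with array weights, against 0. In the other comparisons leaving out single numbers gave 0. The settings that drop array b of a number, use only array a or b, or drop the 6 unlettered arrays were chosen after seeing the data. Where a call changed, the cause was not tested. Signals close to the floor, as for Hspa4, limit what can be seen.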

Other observations

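At 1 h after exercise number 1 lay above number 2 in both RNA fractions for both Dnajb1 probe sets and for 3 of the 5 inducible Hsp70 probe sets (L16764_s_at, Z75029_s_at and Z27118cds_s_at), a pattern singled out after its values were seen and not tested. Dnajb1, the Hsp40 partner of inducible Hsp70, had signals of 8441 and 1009 in numbers 1 and 2 of the 1 h polysomal group and of 5071 and 1699 in the 1 h total group (rc_AA945704_at). In its other probe set, rc_AA859648_at, they were 2670 and 830 in the 1 h polysomal group and 4658 and 1725 in the 1 h total group. L16764_s_at of the inducible Hsp70 had 12610 and 9400 in the 1 h polysomal group and 13640 and 5434 in the 1 h total group. In 1 h polysomal RNA rc_AA818604_s_at had 201 and 209, and AA848563_s_at was under the floor in both numbers. Dnaja1 did not share this in polysomal RNA, where rc_AA800551_at had 1046 and 1055. The probe sets of Hspb1 and Cryab all had this order in both fractions, so it was not particular to Dnajb1 and Hsp70. M86389cds_s_at of Hspb1 had 18440 and 12380 in the 1 h polysomal group and 18170 and 11940 in the 1 h total group. In the control titled 1hr polysome rc_AA945704_at of Dnajb1 had 589 and 598 in numbers 1 and 2, and rc_AA859648_at had 667 and 852. There L16764_s_at (1657 and 871) and Z75029_s_at (851 and 448) had the order of the exercised groups, and Z27118cds_s_at (129.5 and 178) did not. Both Cryab probe sets and every Hspb1 probe set except rc_AA998683_at (1287 and 1405) also had that order in this control. M86389cds_s_at, for example, had 9586 and 7405. For the probe sets that had it there, the order was thus not particular to the exercised groups. The labels do not say whether a number marks the same animal in both fractions.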
